A study of Mus musculus with 6 samples.

Results

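Toll-like receptors are the membrane sensors through which myeloid cells detect microbial lipids, proteins and nucleic acids. The genes described here were 8 receptors (Tlr1, Tlr2, Tlr4, Tlr6, Tlr7, Tlr8, Tlr9 and Tlr13), together with Cd14, the co-receptor that hands lipopolysaccharide to the TLR4 complex, and Myd88, the adaptor that carries the signal of all of these receptors into the cell. They were chosen by symbol, and 10 of 10 were found among the 34199 gene symbols counted. Receptors for lipids and proteins sit at the cell surface and those for nucleic acids in endosomes, and both kinds pass through MyD88 and the IRAK kinases to NF-kB and interferon regulatory factors. Mature monocytes, macrophages and neutrophils carry many of these sensors, and progenitors of the granulocyte and macrophage lineages carry fewer.

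Transcripts were measured by bulk RNA-seq in granulocyte-macrophage progenitors of C57Bl/6 mice immortalized with an estrogen receptor fusion of HOXA9 (iGMPs, labelled Lys-GFP-ER-HoxA9), a line that self-renews in stem cell factor while estradiol keeps the fusion active. Each of 3 groups had 2 libraries, taken at 24 h. CAF-1 OFF cultures received 500 µM IPTG, which switches on a short hairpin RNA against Chaf1b, part of CAF-1, which deposits histones on newly made DNA, and control cultures also received IPTG. Both were grown with 150 ng/ml estradiol. In HOXA9 OFF cultures estradiol was washed out. The labels do not say whether the HOXA9 OFF cultures also received IPTG or which clone each culture came from, so differences between HOXA9 OFF and control cannot be told apart from differences in these. The same holds for the clone in CAF-1 OFF against control, and for clone and IPTG in CAF-1 OFF against HOXA9 OFF.

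The libraries held 16773560 to 25170898 gene counts, so that 3 counts corresponded to between 0.118 and 0.182 CPM (counts scaled to a common library size with the TMM factors of edgeR). Chaf1b, the hairpin's target, was counted 2290 and 1810 times in control and fell to 342 and 239 under the hairpin, a log2 fold change of -2.71 ± 0.20 (SE; FDR = 0.0198, edgeR quasi-likelihood test). In HOXA9 OFF it had 1339 and 1012 counts and was also called lower than in control (-0.63, FDR = 0.0396, edgeR). All 10 marker genes of granulocyte-macrophage progenitors were detected in every group. Calls required a 1.5-fold change or more together with a false discovery rate (FDR, Benjamini-Hochberg over the 12460 genes tested) below 0.05. The labels do not say that replicates came from separate cultures, so p-values measure the spread between these libraries, which may be technical. In bulk RNA, fewer cells of a type and less RNA per cell cannot be told apart.

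In control iGMPs the level per length (CPM per kb of exon) was highest for Tlr4, at 13.8 ± 4.15 CPM per kb (SD, n = 2), followed by Myd88 at 12.2 ± 1.84 CPM per kb, and these 2 genes did not differ beyond their spread. Cd14 came next with 5.26 ± 2.00 CPM per kb, then Tlr2 with 2.59 ± 0.229 CPM per kb and Tlr6 with 1.09 ± 0.0220 CPM per kb. The cells therefore carried transcripts of the lipopolysaccharide receptor, its co-receptor and the shared adaptor at rest, with less of the lipopeptide receptors. The other 5 genes (Tlr1, Tlr7, Tlr8, Tlr9 and Tlr13) were at 0.169 CPM per kb or below in control, an order within which counts were too few to separate neighbours. CAF-1 OFF had the same 5 genes at the top, from 16.2 ± 4.73 CPM per kb for Tlr4 to 1.62 ± 0.225 CPM per kb for Tlr6. In HOXA9 OFF, Myd88 (23.7 ± 4.21 CPM per kb), Cd14 (23.1 ± 2.20 CPM per kb), Tlr2 (19.7 ± 6.28 CPM per kb) and Tlr4 (15.9 ± 0.946 CPM per kb) led, and each overlapped its neighbour in the order within 1 SD. Tlr6 stood below them at 5.57 ± 0.822 CPM per kb, and the remaining 5 receptors lay between 2.94 ± 0.506 CPM per kb for Tlr9 and 1.44 ± 0.669 CPM per kb for Tlr7.

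**Figure D1:**
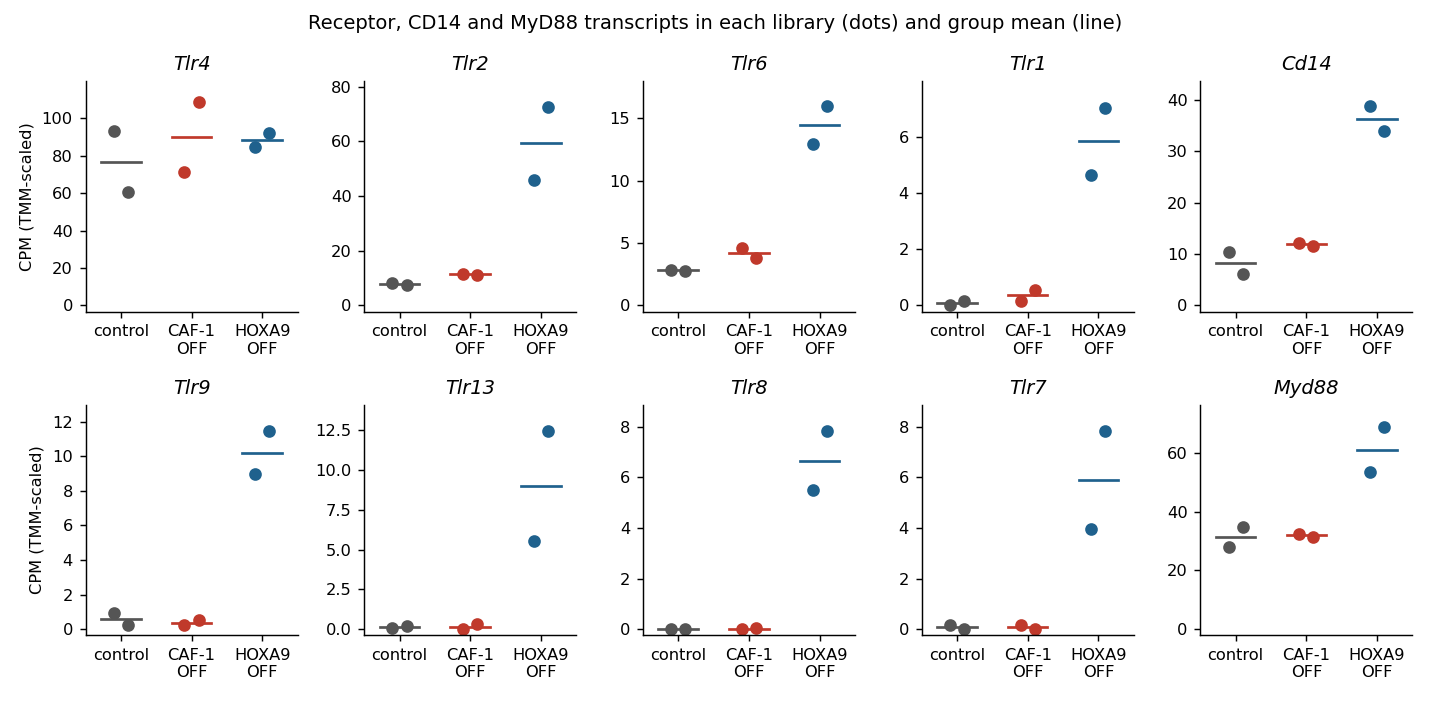
CPM (TMM-scaled, linear axes from 0, each gene with its own scale) of the 10 genes in each of the 6 libraries, with a line at the group mean. Tlr4 overlaps between all groups, the other 9 genes are higher in both HOXA9 OFF libraries than in any other library, and Tlr1, Tlr7, Tlr8, Tlr9 and Tlr13 are near 0 outside HOXA9 OFF.

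Withdrawal of HOXA9 activity was compared with control to ask which of these sensors change as the progenitors leave self-renewal. In HOXA9 OFF, 9 of the 10 genes were called higher and Tlr4 was not called, against 13% of all genes tested that were called higher and 8.97% called lower. Of these 9, the 5 genes near 0 in control passed the filter on low counts only through the HOXA9 OFF libraries, so that they had to differ and their count supports nothing further. Of the 5 genes that pass the filter without those libraries (Tlr2, Tlr4, Tlr6, Cd14 and Myd88), 4 were called higher, and their median log2 fold change was 2.12 against -0.003 over all genes tested.

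Among the surface receptors, Tlr2 pairs with TLR1 or TLR6 to recognise bacterial lipopeptides, and lies on chromosome 3 (83640195-83645689, minus strand, NCBIM37/mm9). It was measured at 8.29 and 7.32 CPM in control, 11.6 and 11.04 CPM in CAF-1 OFF, and 46.0 and 72.8 CPM in HOXA9 OFF. The HOXA9 OFF libraries were the highest by a wide margin, and CAF-1 OFF lay slightly above control without overlap. HOXA9 OFF exceeded control 7.58-fold, a log2 fold change of 2.92 ± 0.24 (FDR = 0.000663, edgeR).

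Tlr6 and Tlr1, the partners of TLR2, are neighbours on chromosome 5 (65344345-65351287 and 65316050-65324000, both on the minus strand), with 20344 bases between them. Their exons share 454 stretches of 50 identical bases, 17.4% of those of Tlr1 and 17.8% of those of Tlr6, and reads that lie wholly within such stretches cannot be assigned to either gene, so the values of both are uncertain. How many reads this concerns was not measured. Tlr6 was at 2.87 and 2.79 CPM in control, 4.62 and 3.80 CPM in CAF-1 OFF, and 13.0 and 16.0 CPM in HOXA9 OFF, with no overlap between any groups. Its log2 fold change in HOXA9 OFF was 2.35 ± 0.24 (FDR = 0.00128, edgeR), or 5.11-fold. Tlr1 had 0 and 3 counts in control, 3 and 11 in CAF-1 OFF, and 96 and 116 in HOXA9 OFF. The control and CAF-1 OFF libraries were thus near the detection limit, and the summed counts of HOXA9 OFF exceeded those of control 81-fold per library size (95% exact interval 27.4 to 396, counting error only; FDR = 0.00461, edgeR). All 3 control counts of Tlr1 came from control 2, without which the control was at 0. Tlr1 passed the filter only through HOXA9 OFF, so its FDR and interval add no support to the difference.

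Tlr4, the signalling receptor for lipopolysaccharide, spans 66488618-66591318 on the plus strand of chromosome 4. It was at 93.0 and 60.4 CPM in control, 71.3 and 108.5 CPM in CAF-1 OFF, and 84.7 and 92.2 CPM in HOXA9 OFF. The groups overlapped, and replicates of control and of CAF-1 OFF differed more from each other than the group means did. The log2 fold change of HOXA9 OFF against control was 0.20 ± 0.25 (95% interval -0.40 to 0.81; FDR = 0.587, edgeR), an interval that still holds changes of more than 1.5-fold upward.

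Cd14 (chromosome 18, 36884728-36886390, minus strand) encodes the co-receptor of TLR4. It was at 10.5 and 6.04 CPM in control, 12.2 and 11.7 CPM in CAF-1 OFF, and 38.8 and 33.9 CPM in HOXA9 OFF, where both libraries stood above all others. The increase in HOXA9 OFF was 4.36-fold, a log2 fold change of 2.12 ± 0.26 (FDR = 0.00221, edgeR).

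**Figure D2:**
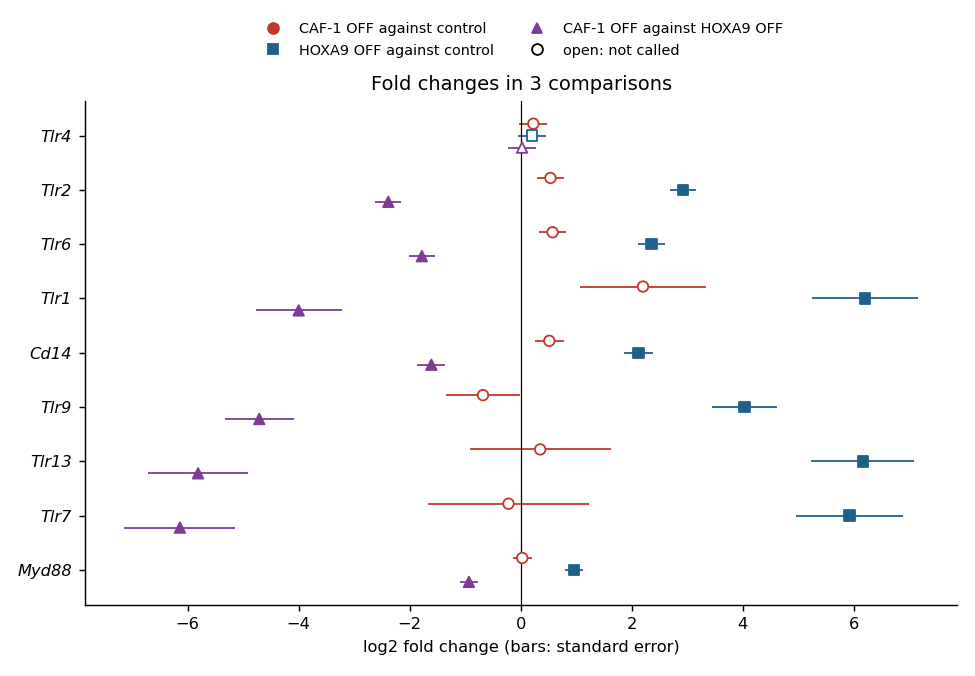
Log2 fold change (horizontal axis) with its standard error (bars) for 9 of the genes in the 3 comparisons, with filled symbols where a gene was called; Tlr8, at 0 in both control libraries, is left out. Tlr4 stays near 0 in each comparison, the squares of HOXA9 OFF against control lie to the right of 0 from 0.96 for Myd88 to 6.20 for Tlr1, and no circle of CAF-1 OFF against control is filled.

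Myd88 (chromosome 9, 119245052-119250529, minus strand) was at 28.01 and 34.7 CPM in control, 32.4 and 31.5 CPM in CAF-1 OFF, and 53.4 and 68.7 CPM in HOXA9 OFF. Both HOXA9 OFF libraries were higher than the other 4, which overlapped. The change in HOXA9 OFF was 1.95-fold, the smallest of the 9 called, with a log2 fold change of 0.96 ± 0.17 (FDR = 0.00719, edgeR), and it was no longer called at a 2-fold minimum with FDR under 0.01. The gene overlaps Acaa1a on the other strand by 118 bases, of which 67 are exonic in both, and whether counting used strand is not given in the sources used here, so reads from that stretch cannot be assigned with certainty.

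The endosomal sensors, like Tlr1, were near 0 in control and CAF-1 OFF and were detected in HOXA9 OFF. TLR7 and TLR8 respond to single-stranded RNA, TLR9 to unmethylated CpG DNA and TLR13, absent from humans, to bacterial ribosomal RNA. Tlr9 lies on chromosome 9 (106124929-106129207, plus strand), and the others on the X chromosome, Tlr13 at 103338543-103355832 on the plus strand and Tlr8 and Tlr7 at 163680626-163702261 and 163742861-163768490 on the minus strand, 40599 bases apart. Promoter windows (250 bases before to 50 after the transcription start, RefSeq, GRCm38.p6) were given for 7 of the 10 genes, and Tlr4, Tlr7 and Cd14 had none. The windows of Tlr1, Tlr8, Tlr9 and Tlr13 are shown because they are those among the members' windows that hold the letters GAGGAA or their complement TTCCTC, in capitals, known as the PU box after the ETS factor PU.1. They are from chr5:64933509-64933808 (minus strand, the first of 2 windows of Tlr1), chrX:167264280-167264579 (minus), chr9:106222348-106222647 (plus) and chrX:106143025-106143324 (plus). The window of Tlr2, from chr3:83841559-83841858 (minus), holds neither and is shown for comparison. It does hold GGAA, the shorter core that ETS factors share, for which the windows were not searched.
Tlr1: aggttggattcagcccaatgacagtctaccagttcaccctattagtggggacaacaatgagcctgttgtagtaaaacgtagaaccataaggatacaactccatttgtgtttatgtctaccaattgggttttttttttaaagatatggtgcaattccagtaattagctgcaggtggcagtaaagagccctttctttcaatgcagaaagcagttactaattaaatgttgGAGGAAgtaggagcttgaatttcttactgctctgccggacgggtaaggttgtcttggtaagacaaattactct
Tlr8: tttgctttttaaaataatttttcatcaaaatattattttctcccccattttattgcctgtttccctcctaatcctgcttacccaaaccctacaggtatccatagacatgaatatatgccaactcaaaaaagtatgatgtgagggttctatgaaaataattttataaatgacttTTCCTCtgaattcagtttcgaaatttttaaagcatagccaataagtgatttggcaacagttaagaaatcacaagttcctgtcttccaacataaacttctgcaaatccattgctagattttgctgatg
Tlr9: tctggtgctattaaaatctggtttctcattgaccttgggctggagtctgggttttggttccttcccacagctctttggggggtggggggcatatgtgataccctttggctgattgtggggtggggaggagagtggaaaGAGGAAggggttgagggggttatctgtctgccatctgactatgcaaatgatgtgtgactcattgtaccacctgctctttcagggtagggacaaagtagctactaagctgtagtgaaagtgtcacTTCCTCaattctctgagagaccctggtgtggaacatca
Tlr13: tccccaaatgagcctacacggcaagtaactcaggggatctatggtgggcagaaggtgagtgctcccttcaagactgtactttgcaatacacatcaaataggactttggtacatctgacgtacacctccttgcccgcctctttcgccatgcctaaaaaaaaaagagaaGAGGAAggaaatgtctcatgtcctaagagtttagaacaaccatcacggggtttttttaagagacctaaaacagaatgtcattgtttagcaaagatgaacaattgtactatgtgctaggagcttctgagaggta
Tlr2: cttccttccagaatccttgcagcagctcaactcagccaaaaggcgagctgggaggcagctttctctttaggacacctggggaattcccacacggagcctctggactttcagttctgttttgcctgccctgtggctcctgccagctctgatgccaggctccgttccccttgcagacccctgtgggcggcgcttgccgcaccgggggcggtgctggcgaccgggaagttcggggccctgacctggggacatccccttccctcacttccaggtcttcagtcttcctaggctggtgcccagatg

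GAGGAA began 23 bases before the start of Tlr1, 112 before that of Tlr9 and 83 before that of Tlr13, and its complement began 77 bases before the start of Tlr8 and 12 after that of Tlr9. The windows of Tlr2, Tlr6 and Myd88 had no match on either strand, and neither did the second window of Tlr1. The window of Tlr11, a receptor at 0 in all 6 libraries, held GAGGAA as well, starting 133 bases before and 25 after the start, while the windows of Tlr3 and Tlr5, with at most 3 counts in any library, held neither form. Of all 32851 promoter windows, 28.3% held the motif, against 4 of the 9 member windows, and such a match is a description and no sign of binding. Other motifs searched on both strands were TTGCNNAA (C/EBP), found for Tlr6, Tlr8 and Tlr13 and in 10.8% of all windows, TGANTCA (AP-1), found for Tlr9 and in 7.81%, the interferon response element, found for Tlr6 and Myd88 and in 3.44%, and the NF-kB site, found for none of the 7 and in 1.63%. No match of one motif overlapped a match of another, and the motifs were chosen after the windows had been seen.

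Tlr7 had 4 and 0 counts in control, 3 and 0 in CAF-1 OFF, and 82 and 129 in HOXA9 OFF. Tlr8 was at 0 in both control libraries, had 0 and 1 counts in CAF-1 OFF, and reached 114 and 129 in HOXA9 OFF. These adjacent receptors were therefore at the detection limit wherever estradiol was present. HOXA9 OFF exceeded control 60.5-fold for Tlr7 (95% exact interval 23.3 to 224; FDR = 0.00566, edgeR), with all control counts of Tlr7 in control 1. For Tlr8 the control was at 0 and the ratio is a lower bound, at least 46.4-fold higher against 3 counts in each control library (FDR = 0.00151, edgeR). Tlr7 and Tlr8 passed the filter only through HOXA9 OFF, so these FDRs and the interval add no support to the difference.

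Tlr9 had 24 and 4 counts in control, 5 and 10 in CAF-1 OFF, and 186 and 189 in HOXA9 OFF. The high control library overlapped nothing in HOXA9 OFF, and the summed counts differed 15.4-fold (95% exact interval 10.5 to 23.4; FDR = 0.00376, edgeR). The fitted log2 fold change of 4.03 ± 0.58 was 5.41 without control 1 and 3.43 without control 2. Tlr13 had 2 and 3 counts in control, 0 and 6 in CAF-1 OFF, and 115 and 205 in HOXA9 OFF, a ratio of 73.4 (95% exact interval 31.1 to 228; FDR = 0.00436, edgeR). Tlr9 and Tlr13 too passed the filter only through HOXA9 OFF, so their FDRs and intervals add no support to the difference. In HOXA9 OFF the 4 endosomal sensors reached between 3.96 CPM (Tlr7) and 12.4 CPM (Tlr13) in a library, and for each of them the second HOXA9 OFF library was the higher.

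That second library also stood apart in 3 markers of mature cells. C1qb, a complement subunit of macrophages, had 3 and 291 counts in HOXA9 OFF 1 and 2, C1qc had 1 and 99, and Siglech, a marker of plasmacytoid dendritic cells, had 2 and 49. Of the 8 macrophage markers, 6 had the higher CPM in HOXA9 OFF 2, while Emr1 (179.7 and 147.8 CPM) and Mrc1 (1.11 and 0.485 CPM) were higher in HOXA9 OFF 1. Without HOXA9 OFF 2, the log2 fold changes against control were 2.56 for Tlr2, 2.20 for Tlr6, 2.22 for Cd14 and 0.77 for Myd88, each still called (FDR at most 0.0358, edgeR), and 5.87 for Tlr1, 5.37 for Tlr7, 3.85 for Tlr9 and 5.47 for Tlr13, the last down from 6.16 (with the remaining HOXA9 OFF library assumed to vary like the other groups). Macrophage markers as a list moved with these genes in both libraries: the summed level of 8 such markers was 28.2 to 51.2 CPM for control, 31.7 to 39 CPM for CAF-1 OFF and 420 to 498 CPM for HOXA9 OFF, and of the 4 tested 3 were called higher in HOXA9 OFF (Csf1r, Emr1 and Cd68; 13% of all genes tested), while Mertk, C1qa and C1qc were at 0 in control and CAF-1 OFF. Among 10 progenitor markers, 5 were called lower in HOXA9 OFF (Kit, Cd34, Ctsg, Myb and Flt3), against 8.97% of all genes. Sfpi1, which encodes PU.1, was called higher. The other 4 were not called, with log2 fold changes of 0.53 for Mpo, 0.59 for Prtn3, 0.76 for Elane and 0.03 for Cebpa. Added up, the 10 markers hardly differed, with 12600 to 15700 CPM for control libraries and 12600 to 15800 CPM for those of HOXA9 OFF. Mpo was the largest part of this sum. The summed level of 4 plasmacytoid dendritic cell markers was 0.314 to 0.813 CPM in control and 0.289 to 3.03 CPM in HOXA9 OFF. For 5 T and NK cell markers it was at most 0.485 CPM in any library, with Cd3e, Cd3g and Ncr1 at 0 throughout. The part of a changed cell make-up in the receptor values was not tested.

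The make-up of the receptor transcripts differed between groups when each library was taken as its own total of CPM per kb over the 12 Toll-like receptor genes of the mouse. Tlr4 made up 76.4% and 71.6% of that total in control, 59.6% and 71.3% in CAF-1 OFF, and 34.1% and 27.4% in HOXA9 OFF. Tlr2 made up 12.6% and 16% in control, 17.9% and 13.4% in CAF-1 OFF, and 34.2% and 39.9% in HOXA9 OFF, so that in both of the last libraries it was at least level with Tlr4. The 4 endosomal sensors together took 1.5% and 0.721% in control, 0.524% and 0.856% in CAF-1 OFF, and 14.4% and 17.3% in HOXA9 OFF. Tlr12 took 4.41% and 4.22% in control, 13.4% and 8.15% in CAF-1 OFF, and 2.01% and 0.821% in HOXA9 OFF, with no overlap between groups. The total itself was 21.9 and 15.2 CPM per kb in control, 21.6 and 27.4 in CAF-1 OFF, and 44.7 and 60.5 in HOXA9 OFF. These shares are given as a description, since the rise of 1 gene lowers the share of the others.

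**Figure D3:**
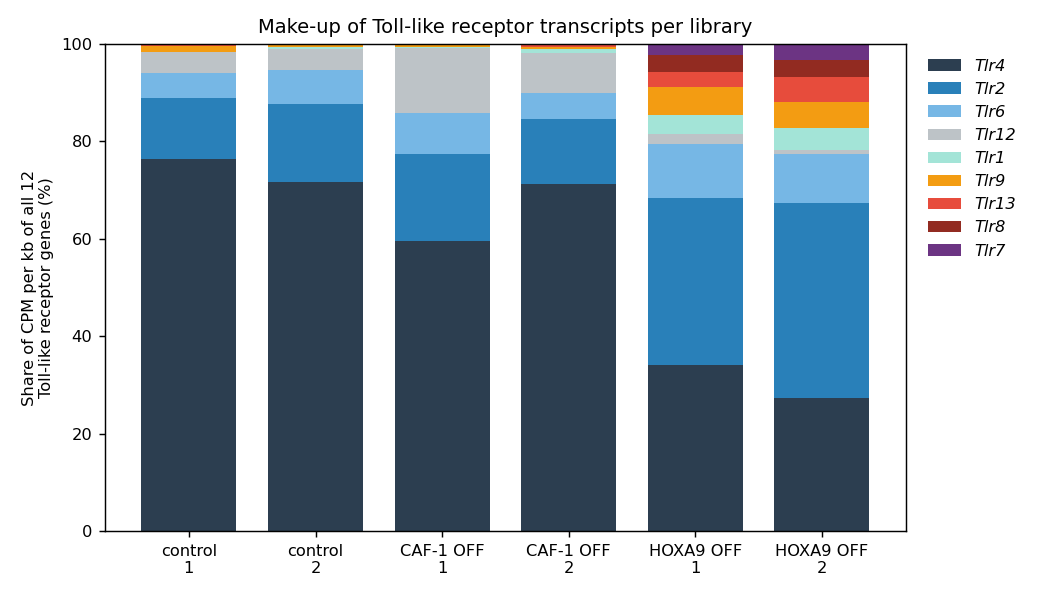
Share of each receptor (percent, stacked bars from 0 to 100) in the summed CPM per kb of the 12 Toll-like receptor genes, for each of the 6 libraries; Tlr3, Tlr5 and Tlr11 are too low to be seen. Tlr4 fills 59.6% to 76.4% of the 4 bars with estradiol and 27.4% to 34.1% of the HOXA9 OFF bars, where the endosomal receptors at the top become visible.

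Suppression of CAF-1 was compared with control to ask whether its loss at 24 h moves the same sensors. None of the 10 genes was called by edgeR, nor by DESeq2, while edgeR called 0.0321% of all genes tested in either direction, or 4 genes, and DESeq2 called 192. At an unadjusted p under 0.05 the edgeR fit held 1, Tlr6, with a log2 fold change of 0.57 ± 0.24 and an FDR of 0.454, and 10.7% of all genes tested were under the same limit, so that 1 of 10 is near the share over all genes. Tlr2 (0.54 ± 0.24, FDR = 0.485, edgeR) and Cd14 (0.51 ± 0.26, FDR = 0.538, edgeR) had estimates of similar size, though that of Cd14 was 0.98 without control 1 and 0.19 without control 2. In these 3 genes both CAF-1 OFF libraries lay above both control libraries, and in no member did both lie below, while 20.1% of all genes tested were above in this way and 20% below.

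For Myd88 the log2 fold change in CAF-1 OFF was 0.03 ± 0.17 (95% interval -0.37 to 0.43; FDR = 0.971, edgeR), an interval that holds no change of 1.5-fold or more. For Tlr4 it was 0.23 ± 0.25 (95% interval -0.38 to 0.83; FDR = 0.793, edgeR), which does hold such a change. Tlr9 was lower in the fit at -0.68 ± 0.67 (FDR = 0.767, edgeR), with overlapping libraries and the control spread of 24 and 4 counts given above. Tlr1 had 14 counts in the CAF-1 OFF libraries together and 3 in control, a ratio of 5.11 (95% exact interval 1.43 to 27.7, counting error only), but it was not called over the spread between libraries (FDR = 0.551, edgeR). Tlr7, Tlr8 and Tlr13 had at most 6 counts in any library of either group, and no difference between these groups was detectable at this depth.

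CAF-1 OFF was then compared directly with HOXA9 OFF, using the same libraries as the comparisons above. Here 9 of the 10 genes were called lower in CAF-1 OFF and Tlr4 was not, against 12.6% of all genes called lower and 9.56% called higher. As in the comparison with control, Tlr1, Tlr7, Tlr8, Tlr9 and Tlr13 passed the filter only through HOXA9 OFF and had to differ, and of the other 5 genes 4 were called lower. Tlr2 differed by -2.39 ± 0.23 on the log2 scale (FDR = 0.00117, edgeR), Tlr6 by -1.78 ± 0.23 (FDR = 0.00287, edgeR), Cd14 by -1.61 ± 0.25 (FDR = 0.00541, edgeR) and Myd88 by -0.93 ± 0.17 (FDR = 0.00835, edgeR). These are the genes with enough counts in both groups for a stable ratio. For the receptors near 0 in CAF-1 OFF, summed counts in HOXA9 OFF were 15.9-fold higher for Tlr1 (95% exact interval 9.25 to 29.5), 26.2-fold for Tlr9 (15.7 to 47.3), 55.9-fold for Tlr13 (25.4 to 153) and 73.7-fold for Tlr7 (24.9 to 360). Tlr8 had a single CAF-1 OFF count and a ratio of 255 with an interval of 45.3 to 10100. These ratios rest on few counts: without CAF-1 OFF 1 the fitted log2 difference was -3.37 for Tlr1, -4.32 for Tlr9 and -4.85 for Tlr13, and without CAF-1 OFF 2 it was -5.15 for Tlr1, -5.24 for Tlr9 and -5.16 for Tlr7. All counts of Tlr7 in CAF-1 OFF came from CAF-1 OFF 1 and all those of Tlr13 from CAF-1 OFF 2, so without that library the group was at 0. For Tlr4 the difference was 0.02 ± 0.25 (95% interval -0.58 to 0.63; FDR = 0.955, edgeR).

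Around the receptors, 67 further genes of the pathway were listed by role, of which 58 were tested. In HOXA9 OFF against control, 23 were called higher and 2 lower, against 13% and 8.97% of all genes tested, and the median log2 fold change was 0.45. Leaving aside Irg1, which did not pass the filter without HOXA9 OFF, 22 of 57 were higher. With each role list below, the same shares over all genes apply. Without control 1 the number called fell from 25 to 16. Among the genes named below, Ly96, Ly86, Rel, Ikbke, Il1b, Tnf and Irg1 each lost the call when at least 1 of the libraries was left out, and Ly96 also lost it with the replicate number as a block and with library size alone. Co-receptors were called higher in 3 of 4 tested: Lbp, which loads lipopolysaccharide onto CD14 (2.12 ± 0.20, FDR = 0.00102, edgeR), Ly96, which encodes the MD-2 subunit that TLR4 needs to bind it (1.62 ± 0.50, FDR = 0.0486, edgeR), and Ly86, a partner of CD180 (1.57 ± 0.40, FDR = 0.0256, edgeR). Of the other Toll-like receptors, Tlr3 and Tlr5 had at most 3 counts in any library, Tlr11 was at 0 throughout, and Tlr12 was not called (-0.20, FDR = 0.727, edgeR).

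Genes for trafficking and processing of endosomal receptors rose in 3 of 8 tested. Unc93b1, the chaperone that brings nucleic acid sensors to endosomes, had 5999 and 3044 counts in control and 14533 and 10140 in HOXA9 OFF, a log2 fold change of 1.67 ± 0.17 (FDR = 0.00122, edgeR). Ctss, a protease that cleaves these receptors, had 18 and 28 counts in control and 903 and 1177 in HOXA9 OFF (5.68 ± 0.41, FDR = 0.000493, edgeR). The protease gene Ctsb changed by 1.57 ± 0.14 (FDR = 0.000801, edgeR).

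Among 14 adaptors and proximal kinases, 6 rose and none fell, led by Irak2 (1.86 ± 0.20, FDR = 0.00164, edgeR), Pik3ap1 (1.25 ± 0.18, FDR = 0.00388, edgeR) and Irak4 (0.93 ± 0.11, FDR = 0.00194, edgeR), with IRAK2 and IRAK4 being kinases of the complex that forms on MyD88. Of 14 genes for IKK kinases, NF-kB subunits and interferon regulatory factors, 5 rose and none fell, led by Ikbke (1.79 ± 0.36, FDR = 0.0116, edgeR), Rel (1.73 ± 0.36, FDR = 0.0139, edgeR) and Irf5 (1.73 ± 0.20, FDR = 0.00199, edgeR). Of 8 inhibitors, 3 were higher and 1 lower, the latter a share near the 8.97% of all genes. Tnfaip3, which encodes the deubiquitinase A20, rose by 1.84 ± 0.28 (FDR = 0.00433, edgeR), Irak3 by 1.25 ± 0.16 (FDR = 0.00258, edgeR) and Cyld by 0.71 ± 0.12 (FDR = 0.00575, edgeR). Sigirr, a receptor that dampens signalling, fell by 1.82 on the log2 scale (FDR = 0.000713, edgeR).

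Of 14 genes that Toll-like receptor signalling induces, 9 were tested, 3 rose and 1 fell. Il1b had 6 and 2 counts in control and 21 and 13 in HOXA9 OFF (2.26 ± 0.54, FDR = 0.021, edgeR), and Tnf had 43 and 16 and then 79 and 81 (1.71 ± 0.39, FDR = 0.018, edgeR). Irg1, which makes itaconate, was at 0 in both control libraries and had 9 and 34 counts in HOXA9 OFF, at least 8.22-fold higher against 3 counts per library. Irg1 did not pass the filter without HOXA9 OFF, and it was not called in a fit of the 4 libraries compared. Its call therefore adds no support to the difference. Il6 went the other way, from 219 and 183 counts in control to 29 and 52 in HOXA9 OFF (-2.09 ± 0.39, FDR = 0.0094, edgeR).

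**Figure D4:**
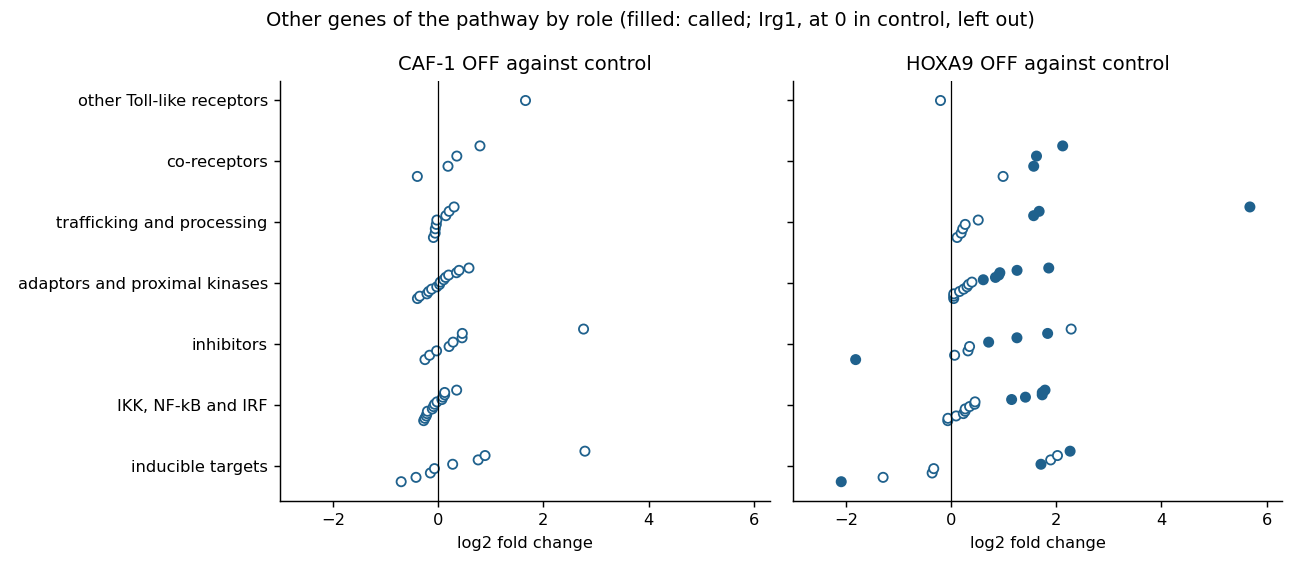
Log2 fold change (horizontal axis) of the tested pathway genes by role, each condition against control in its own panel, filled where called; Irg1, at 0 in control, is left out. No gene is filled in the left panel, while the right panel shows filled points mostly to the right of 0, with Ctss at 5.68 and with Sigirr and Il6 on the left.

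In CAF-1 OFF against control none of the 58 tested pathway genes was called by edgeR, while 10 had an unadjusted p under 0.05, as did 10.7% of all genes tested, and the median log2 fold change was 0.03. DESeq2 called 3 of the 58 (Irg1, Lbp and Tlr12), where it called 192 of all 12460 genes, and edgeR with no filter on low counts called 4 of 65 (these and Il1b), where it called 378 of 19883. Tlr12, a receptor for profilin of parasites, had 78 and 35 counts in control, 176 and 140 after CAF-1 suppression and 59 and 26 after HOXA9 withdrawal. Its log2 fold change was 1.66 ± 0.38 against control (FDR = 0.23, edgeR) and 1.86 ± 0.38 against HOXA9 OFF, where it was called (FDR = 0.0132, edgeR). Irg1 had 15 and 10 counts in CAF-1 OFF, at least 4.56-fold above the limit set by 3 counts per control library (FDR = 0.307, edgeR), and Il1b had 24 and 27 (2.79 ± 0.52, FDR = 0.161, edgeR). Directly against HOXA9 OFF, 3 pathway genes were called higher in CAF-1 OFF (Tlr12, Sigirr and Il6) and 15 lower, against 9.56% and 12.6% of all genes tested.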

How the data were processed

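Reads were aligned by the authors to mm9 with STAR and assigned to genes with HTSeq. The deposited files held read counts for each gene symbol, whole numbers without any scaling. The annotation and strand setting of the counting were not given in the sources used here. Groups and replicate numbers were read from the sample titles. In R 4.3.3, edgeR 4.0.16 (filterByExpr by group, TMM, quasi-likelihood test, 1 mean per group over all 6 libraries) was applied to all genes, with FDR by Benjamini-Hochberg, after being tested on simulated data. Standard errors were derived from the F statistic. Ratios of low counts carry exact conditional binomial intervals at the 95% level, which cover counting error only. Positions and exon lengths came from GENCODE on NCBIM37.

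The members, role lists and tests were chosen with earlier results of these data known. Named were all members, and in each role list every gene called in CAF-1 OFF against control plus up to 3 called genes with the largest change per direction in HOXA9 OFF against control, the gene of highest Pearson's r with each member, and Chaf1b. Genes outside this rule (Tlr12 and other receptors, genes called only under an alternative, and markers) were chosen after their values were seen. The alternatives were DESeq2 1.42.0, other scalings, filters and thresholds, a replicate block and leaving out each library.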

Additional observations from a re-analysis of the deposited data

How the results depend on the processing

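No result changed direction with a call under any alternative run. With a mean CPM of at least 5, the number of member genes called was 4 in HOXA9 OFF against control and 4 in CAF-1 OFF against HOXA9 OFF, since fewer were tested. Of the pathway genes in CAF-1 OFF against control, 4 of 65 were called with no expression filter (378 of all 19883 genes) and 3 of 58 by the DESeq2 Wald test (192 of 12460), and the cause was not tested. A 2-fold minimum with FDR under 0.01 left 12 pathway genes in HOXA9 OFF against control and 7 in CAF-1 OFF against HOXA9 OFF, where no fold minimum gave 30, and it ended the calls of Myd88 in both comparisons and of Tlr1 in the second. Leaving out each library in turn gave 9 members in both comparisons with HOXA9 OFF, of which 5 had to differ, and 0 in CAF-1 OFF against control, and 16 to 25 pathway genes in HOXA9 OFF against control (16 without control 1), 14 to 18 in CAF-1 OFF against HOXA9 OFF and 0 in CAF-1 OFF against control.

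With the replicate number as a block, 0, 9 and 9 members and 0, 27 and 18 pathway genes were called in the 3 comparisons. In HOXA9 OFF against control the block ended the call of Ly96 and added Ccl3, Ccl4 and Cd180. Deviations of same-numbered libraries correlated at -0.178 between CAF-1 OFF and control, 0.456 between HOXA9 OFF and control and 0.033 between CAF-1 OFF and HOXA9 OFF, so the numbers were not taken as pairs. Crossing the numbers, chosen after seeing the data, gave 0, 9 and 9 members and 0, 27 and 20 pathway genes. Over all genes, CAF-1 OFF against control gave 4 calls, 2 with the block, 71 with crossed numbers, 9 in a fit of the 4 libraries compared and 0 to 10 with a library left out. With library size alone, 50.4% of all genes called in HOXA9 OFF against control were higher, against 59.2% with TMM, and 52.5% against 43.2% in CAF-1 OFF against HOXA9 OFF. Depth limits Tlr1, Tlr7, Tlr8, Tlr9 and Tlr13 outside HOXA9 OFF: in CAF-1 OFF against control the fitted sign of Tlr7, Tlr9 and Tlr13 changed under at least 1 alternative, as did those of Tlr4 and Myd88.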

Other observations

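The gene with the most similar pattern to each member was sought over the 6 libraries among 9610 other genes with a mean of at least 5 CPM. As a description, with points that share libraries and groups, Pearson's r was 0.9995 between Tlr8 and Csf1r, the receptor for macrophage colony-stimulating factor, whose mean level was 4.14 CPM in control and 254 CPM in HOXA9 OFF. It was 0.9982 between Tlr7 and Fos, an immediate early factor, 0.999 between Tlr9 and Evi2b, and 0.9991 between Cd14 and Cyld, a deubiquitinase of the inhibitor list. The nearest genes were Als2cl for Tlr1 (0.9973), Slc33a1 for Tlr2 (0.997), Dtx3l for Tlr6 (0.9993), 5330426P16Rik for Tlr13 (0.9992) and Coro7 for Myd88 (0.9985). For Tlr4, the member without a called change, it was Gigyf2 (0.994), which had a mean of 87.6 CPM in control and 97.8 CPM in HOXA9 OFF. With 6 libraries in 3 groups, values this high are found for every member, and no shared control is read from them. A high r also went with changes of unlike size. The mean of Slc33a1 was 40.1 CPM in control and 51.4 CPM in HOXA9 OFF, beside 7.80 and 59.4 CPM for Tlr2. That of Evi2b was 147 and 240 CPM, beside 0.588 and 10.2 CPM for Tlr9. Means of Als2cl (1.89 and 18.5 CPM) and Fos (7.39 and 36.6 CPM) changed more.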
